A study of Homo sapiens with 3 samples.

Results

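The Hippo pathway limits growth through a short cascade of protein kinases, and its core genes were followed here at the level of mRNA in mesothelioma cells carrying a hairpin against Nf2, the gene of merlin. The genes described are Stk3 and Stk4 (the kinases MST2 and MST1), Sav1 (their scaffold), Lats1 and Lats2 (the kinases they activate), Mob1a and Mob1b (co-activators of LATS) and Taok1, Taok2 and Taok3 (the TAO kinases, which activate MST). They were taken by gene symbol. All 10 had a row among the 13936 genes of the deposited table, and all 10 were among the 12813 genes tested.

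The cells are AB12, a mouse malignant mesothelioma line, grown in RPMI with serum. A single library (n = 1) came from cells with the hairpin labelled shSC, taken here as the control, and 2 came from cells labelled shNF2, numbered 20 and 21 in their titles and called library 20 and library 21. The labels do not say whether 20 and 21 are 2 hairpins, and nothing in them says that the libraries came from separate cultures. A p-value therefore reflects no more than the spread between libraries 20 and 21, moderated over all genes, and that spread may be technical. All groups share the parental line and the culture medium, and nothing is said of how the hairpins were delivered or of any selection of clones. The organism is given as human, but the table carries mouse Ensembl gene IDs, and mm10, a mouse build, is named in the submitters' processing notes, so the values were read as mouse. Mouse sequences were not used here, so no promoter, protein or coordinate is given.

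In the active pathway, TAO kinases or other upstream signals switch on MST1/2 bound to SAV1. MST1/2 phosphorylate LATS1/2 and MOB1, and LATS1/2 then phosphorylate the coactivators YAP and TAZ, which keeps them out of the nucleus. Merlin, the product of NF2, binds LATS1/2 at the membrane, where MST1/2 can reach them, and NF2 and LATS2 are both recurrently lost in human mesothelioma. The cascade is regulated largely by phosphorylation, which mRNA levels do not show. LATS2 and AMOTL2 are also known as transcriptional targets of YAP, a negative feedback.

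Values below are scaled counts, that is, reads per gene divided by 1 size factor per library, as deposited. Reads assigned to genes numbered 25837151 to 29532600 per library, and the 10 genes had between 355 and 12089 reads in any one library. Nf2 itself was lower in both shNF2 libraries, at 1539 scaled counts for shSC against 486 and 458 for libraries 20 and 21. Of 10 mesothelial markers 5 had a row in the table (Msln, Krt7, Krt8, Krt18, Krt19), whereas Wt1, Upk3b, Pdpn, Calb2 and Lrrn4 had none. Summed scaled counts of the mesothelial markers were 43900 in shSC, 39947 in library 20 and 33759 in library 21. Its members did not share a direction: Krt7 rose (49.7, 290 and 183 scaled counts, limma adjusted p = 0.0119) and Msln stood at 7397, 9722 and 8977, while Krt8, Krt18 and Krt19 were at -0.37, -0.36 and -0.86 (log2 fold change), none past the threshold. None of the 5 lymphocyte and 4 endothelial markers had a row. Of the 5 fibroblast markers only Pdgfra had one, at 9.74 to 14.6 scaled counts, and of the 6 myeloid markers only Cd68 (88.6, 105 and 87.5 in shSC, library 20 and library 21) and Lyz2 (56.5, 260 and 108), with a sum of 145, 365 and 195. Lyz2 had a log2 fold change of 1.55 and Cd68 0.11, and neither passed. The part of these markers in the results below was not tested, and fewer cells of a kind cannot be told apart from less RNA per cell.

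None of the core genes passed the test. In limma, fitted to log2(scaled count + 1) with a mean-variance trend and Benjamini-Hochberg adjustment over all 12813 genes and a threshold of 0.05, 0 of 10 genes passed, against 0.843% of all genes tested. edgeR and DESeq2 on the recovered reads also called 0 of 10. At an unadjusted limma p under 0.05 there was 1 of the 10 (Stk4), against 9.27% of all genes. The median log2 fold change of the 10 genes was 0.13, and that of all tested genes was 0.00. The median size of the change, whatever its direction, was 0.30 for the 10 genes and 0.23 over all tested genes.

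The precision of the comparison was as follows. Standard errors of the 10 log2 fold changes ran from 0.21 to 0.26, and the smallest change that passed anywhere in the table was 1.98-fold. The limma 95% intervals of the 10 genes reached at most down to 0.526-fold and up to 2.14-fold. The fitted change was smaller than its standard error for 4 genes (Lats1, Sav1, Mob1a and Taok1), between 1 and 2 standard errors for 4 (Stk3, Mob1b, Taok2 and Taok3) and above 2 for 2 (Stk4 and Lats2).

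**Figure D1:**
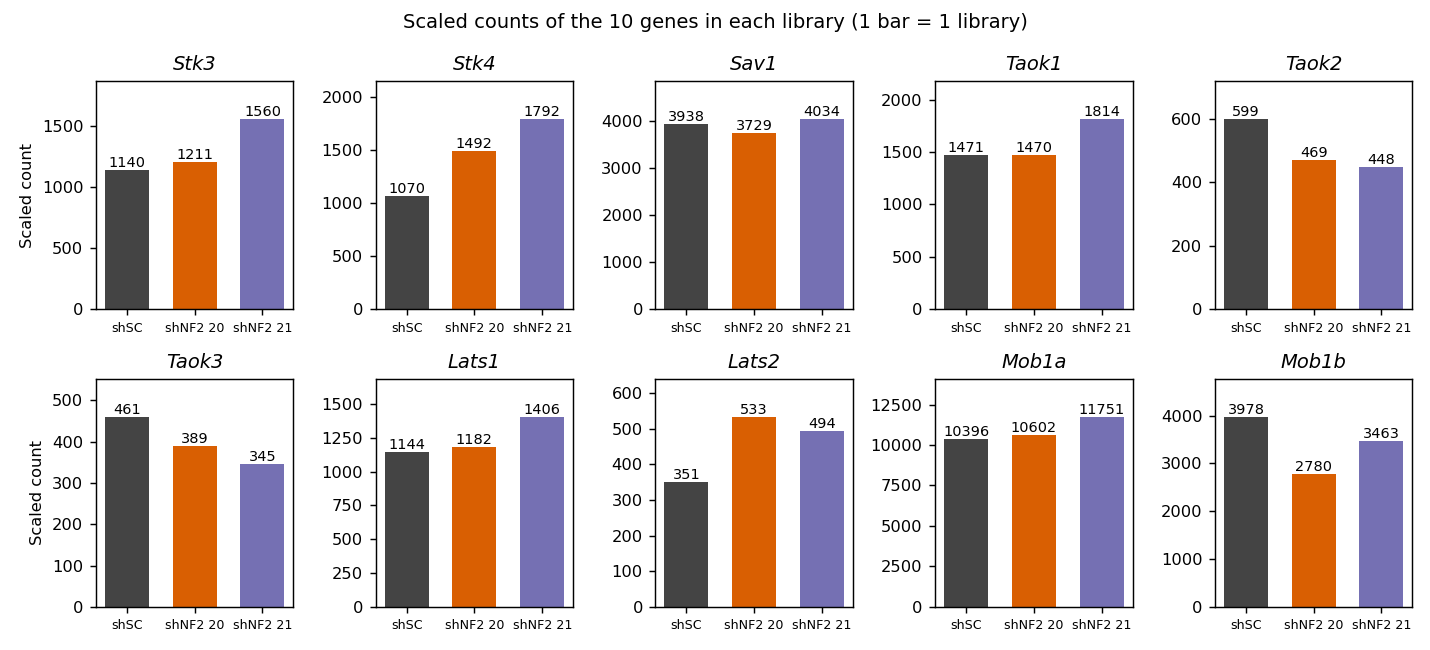
Scaled counts (vertical axis, linear, from 0, with its own range for each gene) of the 10 core genes in the shSC library and in shNF2 libraries 20 and 21; each bar is 1 library, so there are no error bars. Stk4 and Lats2 stand above shSC in both shNF2 libraries, Taok2, Taok3 and Mob1b below it, and Sav1 has shSC between them.

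The TAO kinases, at the top of the cascade, had values on both sides of shSC, and none passed the test. Taok1 stood at 1471 (shSC), 1470 (library 20) and 1814 (library 21) scaled counts. Library 20 lay just below shSC and library 21 above it, so the groups overlapped, and the fitted log2 fold change was 0.15 ± 0.23 (SE; adjusted p = 0.881 in limma). Taok2, which also regulates the cytoskeleton in neurons, stood at 599 (shSC), 469 (library 20) and 448 (library 21) scaled counts. Both shNF2 libraries lay below shSC, with a fitted log2 fold change of -0.39 ± 0.25 (SE; adjusted p = 0.699 in limma). Taok3 stood at 461 (shSC), 389 (library 20) and 345 (library 21) scaled counts. Again both lay below shSC without overlap, and the log2 fold change was -0.33 ± 0.26 (SE; adjusted p = 0.759 in limma). For Taok2 and Taok3 the ratio to shSC, with its 95% counting interval, was 0.783 (0.691 to 0.885) and 0.845 (0.736 to 0.970) in library 20, and 0.748 (0.662 to 0.846) and 0.749 (0.651 to 0.862) in library 21. Such intervals cover counting error only, not the spread between libraries of one group.

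Of the MST kinases and their scaffold, Stk4 had the largest change among the 10 genes. Stk4, which encodes MST1, stood at 1070 (shSC), 1492 (library 20) and 1792 (library 21) scaled counts. Both shNF2 libraries lay above shSC, by 1.39-fold in library 20 (95% counting interval 1.29 to 1.51) and 1.68-fold in library 21 (1.55 to 1.81). The fitted log2 fold change was 0.61 ± 0.23 (SE; adjusted p = 0.368 in limma), higher than that of 94.2% of the genes tested, and it did not pass. Stk3, which encodes MST2, stood at 1140 (shSC), 1211 (library 20) and 1560 (library 21) scaled counts. The library 20 value was close to shSC (ratio 1.06, counting interval 0.979 to 1.15), while library 21 was 1.37-fold higher (1.27 to 1.48), and the fit gave a log2 fold change of 0.27 ± 0.24 (SE; adjusted p = 0.778 in limma). Sav1 had the smallest fitted change of the 10 genes. It stood at 3938 (shSC), 3729 (library 20) and 4034 (library 21) scaled counts, with shSC between the shNF2 libraries and a log2 fold change of -0.02 ± 0.21 (SE; adjusted p = 0.984 in limma). The 95% interval for Sav1 ran from 0.722-fold to 1.34-fold.

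Among the LATS kinases, which merlin binds directly, Lats2 had the higher ratio to shSC. Lats2 stood at 351 (shSC), 533 (library 20) and 494 (library 21) scaled counts. Both shNF2 libraries were above shSC, by 1.52-fold (95% counting interval 1.32 to 1.74) and 1.40-fold (1.23 to 1.61). The fitted log2 fold change of Lats2 was 0.54 ± 0.26 (SE; adjusted p = 0.545 in limma), higher than that of 92.7% of genes tested, and it did not pass. Lats1 stood at 1144 (shSC), 1182 (library 20) and 1406 (library 21) scaled counts. The groups did not overlap, but library 20 was within counting error of shSC (ratio 1.03, interval 0.951 to 1.12), and the log2 fold change was 0.17 ± 0.23 (SE; adjusted p = 0.858 in limma). Whether Lats2 changed more than Lats1 was not tested.

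The MOB1 co-activators, which bind LATS once phosphorylated by MST, had fitted changes of opposite sign, and neither passed; a difference between them was not tested. Mob1a stood at 10396 (shSC), 10602 (library 20) and 11751 (library 21) scaled counts, a log2 fold change of 0.10 ± 0.21 (SE; adjusted p = 0.923 in limma). Library 20 was within counting error of shSC for Mob1a (ratio 1.02, interval 0.992 to 1.05). Mob1b stood at 3978 (shSC), 2780 (library 20) and 3463 (library 21) scaled counts. Both shNF2 libraries lay below shSC, by a ratio of 0.699 in library 20 (0.665 to 0.734) and 0.871 in library 21 (0.832 to 0.911), and the fitted log2 fold change was -0.36 ± 0.22 (SE; adjusted p = 0.687 in limma). MOB1A and MOB1B are near-identical proteins. Reads that aligned to more than one place were kept in a row of the table that names no gene, and their effect on the Mob1a and Mob1b counts was not tested.

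**Figure D2:**
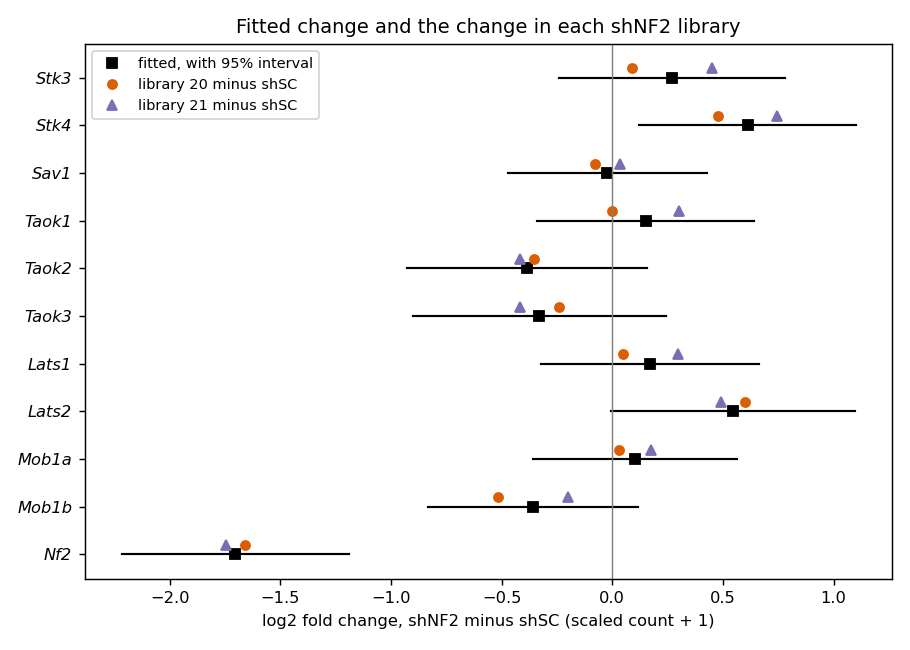
Log2 fold changes against shSC (horizontal axis) for the 10 core genes and Nf2; black squares with lines are the limma estimate and its 95% interval, circles are library 20 and triangles library 21. The intervals of 9 core genes include 0 and that of Stk4 runs from 0.12 to 1.10 before any adjustment for the number of genes, while that of Nf2 lies wholly below 0.

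Direction by library shows how far the pattern was shared. Both shNF2 libraries were above shSC for 5 of the 10 genes, against 36.1% of all genes tested, and both were below it for 3, against 35.8%. Both counts rest on the same single shSC library. In library 20 alone, 1 of the 10 genes (Lats2) differed from shSC by at least 1.5-fold in either direction, against 14.5% of all genes tested. In library 21 there was 1 (Stk4), against 19.0%. Library 21 against library 20 gave 0 of 10 at that limit, against 13.2% of all genes, and the median size of the difference between these libraries was 0.21 (log2) for the 10 genes and 0.23 for all genes. With 10 genes these counts are near the shares of the whole table, and the comparisons share libraries.

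**Figure D3:**
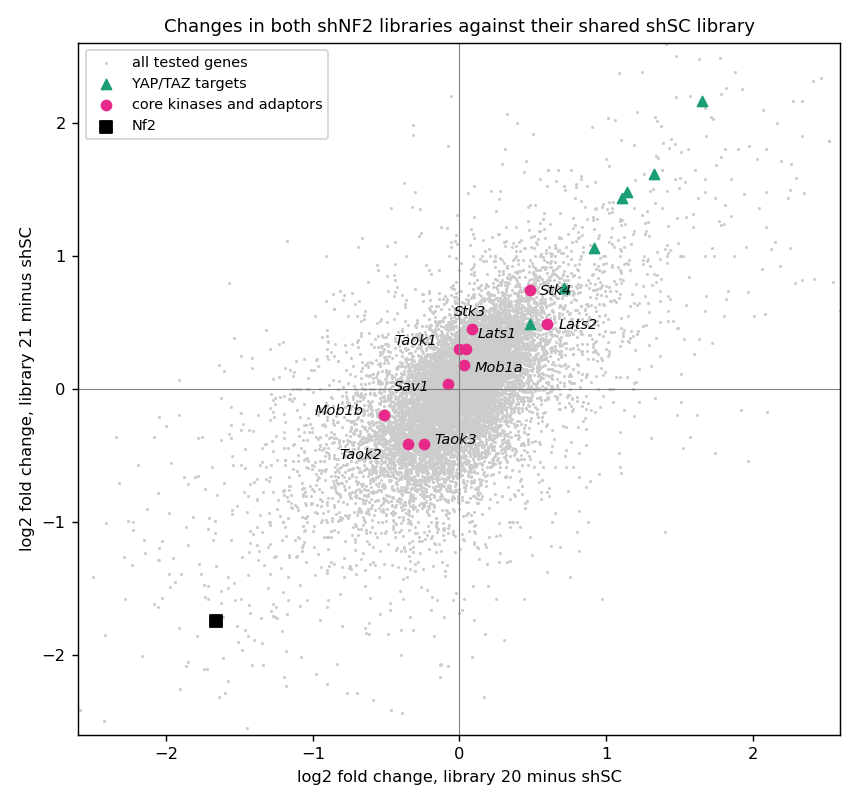
Log2 fold changes of library 20 (horizontal) and library 21 (vertical) against the shSC library they share, for all tested genes (grey), the 10 core genes (pink circles), 7 targets of YAP and TAZ (green triangles) and Nf2 (black square); genes beyond the axis limits are not drawn, and the shared control by itself spreads points along the diagonal. The core genes lie within the dense centre of the cloud or at its edge (Stk4 at 0.48 and 0.74, Lats2 at 0.60 and 0.49).

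Library 21 lay above library 20 for 7 of the 10 genes, against 50.8% of all genes tested, most in Stk3 (ratio 1.29, counting interval 1.19 to 1.39), Mob1b (1.25, 1.18 to 1.31) and Taok1 (1.23, 1.15 to 1.32). In this library, changes against shSC were related to GC content across genes (Spearman's rho -0.373 over 10356 genes, which are not independent replicates; -0.038 in library 20), measured on human transcripts of the same symbols as stand-ins. Stand-in transcripts had a median GC of 38.5% for Stk3, 44.5% for Mob1b and 43.2% for Taok1. Taok2, at 62.0%, and Taok3, at 44.1%, both had a library 21 log2 fold change of -0.42. Mob1a and Sav1, with the lowest GC (37.3% each), had 0.18 and 0.03. The part of GC content or transcript length in the values of single genes was not tested. After a correction of each library for GC and transcript length, the library 21 log2 fold change went from 0.45 to 0.25 for Stk3, from 0.30 to 0.08 for Taok1, from 0.30 to 0.07 for Lats1 and from 0.74 to 0.52 for Stk4. Lats2 in library 21 went from 0.49 to 0.39, and Taok2 from -0.42 to -0.26. Mob1a went from 0.18 to -0.07 and Sav1 from 0.03 to -0.08, while Taok3 and Mob1b moved further from 0, from -0.42 to -0.50 and from -0.20 to -0.25. Changes in library 21 were also related to stand-in length (Spearman's rho 0.209, against 0.037 in library 20). Stand-in lengths, medians over human transcripts, were 605 bases for Taok3, 744 for Sav1, 1107 for Mob1b and 4885 for Mob1a. How well they stand for the mouse transcripts was not tested. In library 20 the same correction left Stk4 at 0.47 and Lats2 at 0.58. No core gene passed after it, with limma adjusted p = 0.255 for Stk4 and 0.383 for Lats2.

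Within each family of paralogs, the share of reads that a member took can be compared between libraries without a size factor, although gene lengths differ and a share of reads is not a share of molecules. The shares were not corrected for GC content or length, to which changes in library 21 were related. The part of these relations in the shares was not tested. Shares within a family are tied together, since a higher share of one member means a lower share of the rest. The shares carry exact Clopper-Pearson 95% intervals, which cover counting error only, and differences between groups in these shares were not tested. Mob1b took 27.7% (27.0 to 28.4) of the MOB1 reads in shSC, 20.8% (20.1 to 21.5) in library 20 and 22.8% (22.1 to 23.4) in library 21. Both shNF2 shares lay below shSC, with gaps of 6.90 and 4.91 percentage points, and the shNF2 libraries differed from each other by 1.99 points. Stk4 took 48.4% (46.3 to 50.5) of the MST reads in shSC, 55.2% (53.2 to 57.1) in library 20 and 53.5% (51.8 to 55.1) in library 21. Here too the gaps to shSC (6.77 and 5.05 points) were wider than that between the shNF2 libraries (1.72 points).

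The other families were less even. Lats2 took 23.5% (21.4 to 25.7) of the LATS reads in shSC, 31.1% (28.9 to 33.4) in library 20 and 26.0% (24.1 to 28.0) in library 21. The interval of library 21 overlapped that of shSC, and the shNF2 libraries differed by 5.10 points. Taok1 took 58.1% (56.2 to 60.0) of the TAO reads in shSC, 63.1% (61.1 to 65.2) in library 20 and 69.6% (67.8 to 71.3) in library 21. In library 20 the scaled count of Taok1 itself was close to shSC (1470 against 1471), while those of Taok2 and Taok3 were lower. The distance between the shNF2 libraries (6.43 points) was larger than that between library 20 and shSC (5.01 points). Taok2 took 23.7%, 20.1% and 17.2% of the TAO reads in shSC, library 20 and library 21, and Taok3 18.2%, 16.7% and 13.2%. For Taok2 the gaps to shSC (3.53 and 6.47 points) were wider than that between the shNF2 libraries (2.95 points). For Taok3 the gaps to shSC were 1.48 and 4.96 points, against 3.48 points between the shNF2 libraries.

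**Figure D4:**
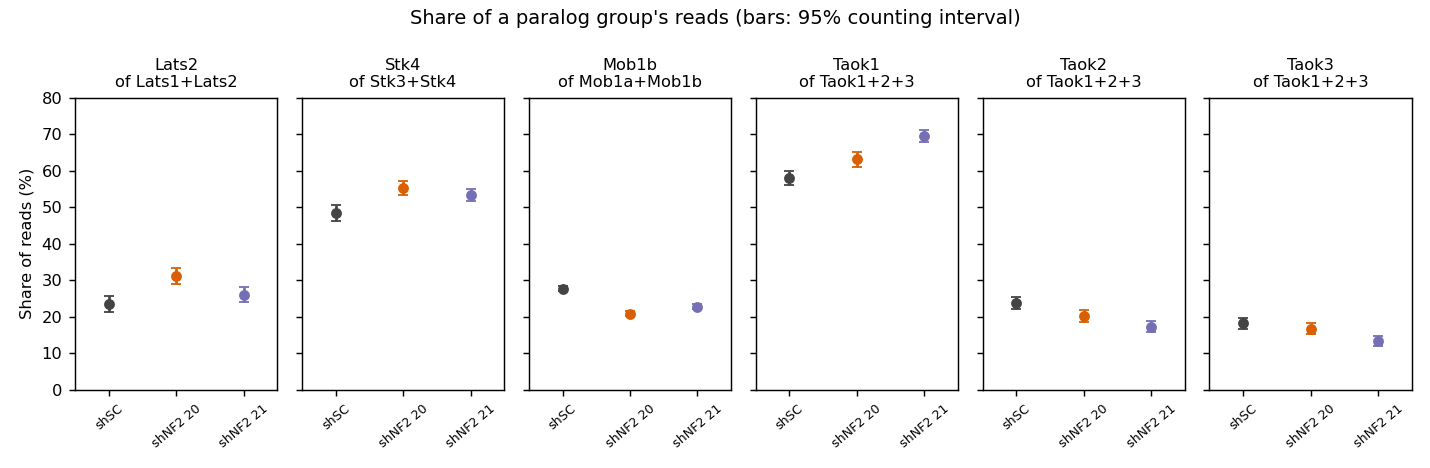
Share of reads (vertical axis, percent) that Lats2, Stk4, Mob1b and each TAO kinase took of its family's reads in each library; points are single libraries and bars are exact 95% counting intervals. The Mob1b share is 27.7% in shSC and 20.8% and 22.8% in the shNF2 libraries, and the Stk4 share is 48.4% in shSC and 55.2% and 53.5%.

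Summed over each family, scaled counts were above shSC in both shNF2 libraries for the MST and LATS kinases, and lay on both sides of shSC for MOB1 and the TAO kinases. The MST kinases had 2210 scaled counts together in shSC, 2703 in library 20 and 3352 in library 21, ratios of 1.22 (counting interval 1.16 to 1.29) and 1.52 (1.44 to 1.60). The LATS kinases had 1496, 1716 and 1899, ratios of 1.15 (1.07 to 1.23) and 1.27 (1.19 to 1.36). For MOB1 the sums were 14374, 13382 and 15214, so that shSC lay between the shNF2 libraries. The TAO kinases had 2531, 2327 and 2607, again with shSC in between. These sums are descriptions with no test, and they too were not corrected for GC content or length.

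The rest of the pathway was read from lists of genes by role. Of 9 tested kinases that act beside MST, TAO and LATS (MAP4K, GCKIII and NDR kinases), 0 passed in either direction, and the median log2 fold change over them was -0.09. Mink1, a MAP4K-family kinase that can phosphorylate LATS, stood at 836, 546 and 546 scaled counts in shSC, library 20 and library 21 (log2 fold change -0.61, limma adjusted p = 0.415). Map4k5 had a log2 fold change of 0.41, Map4k3 0.36 and Stk38, an NDR kinase that also binds MOB1, 0.25. Of the 5 other MOB genes 0 passed, with a median of 0.06; Mob4, a subunit of the STRIPAK phosphatase complex, had 8566, 6552 and 6694 scaled counts in shSC, library 20 and library 21 (log2 fold change -0.37, limma adjusted p = 0.648).

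Among direct regulators of MST, 0 of 23 tested genes passed, with a median log2 fold change of 0.02. STRIPAK, which dephosphorylates and silences MST1/2, had its scaffold gene Strn at 835, 1154 and 1379 scaled counts in shSC, library 20 and library 21 (log2 fold change 0.59, limma adjusted p = 0.409). The scaffold genes Strn3 (5170, 5012 and 5694) and Strn4 (1199, 1116 and 1003) had log2 fold changes of 0.05 and -0.18. Pdcd10, which links STRIPAK to GCKIII kinases, had 12746, 8046 and 7748 (log2 fold change -0.69, limma adjusted p = 0.217). Rassf3, from the RASSF family of MST-binding proteins, was at 0.55 (log2 fold change), and the PP2A catalytic subunit gene Ppp2cb at 0.36. The other catalytic subunit gene, Ppp2ca, had 14984, 14864 and 14893 scaled counts (log2 fold change -0.01).

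Direct regulators of LATS had the highest median of the upstream lists, 0.32, and of 18 tested genes 1 rose and 1 fell, against 0.414% and 0.429% of all genes tested. The gene that fell was Nf2, the target of the hairpin. Earlier results of these data were known when the list was drawn up, so neither the median nor either count is independent evidence about LATS regulators. Amotl2 and Ajuba are also in the list of YAP and TAZ targets below. The gene that rose was Amotl2, a scaffold that binds YAP and promotes LATS activity, from 614 scaled counts in shSC to 1327 in library 20 and 1659 in library 21 (log2 fold change 1.27 ± 0.24, SE, limma adjusted p = 0.0231). The calls on both genes were lost under quantile normalization (limma adjusted p = 0.454 for Nf2 and 0.503 for Amotl2) and without a variance trend (0.187 and 0.290). Ajuba, a LIM protein that holds LATS in an inactive state, had 624, 1023 and 1058 scaled counts (log2 fold change 0.74, limma adjusted p = 0.239). Hsp90aa1, a chaperone of many kinases, was at 0.58 (log2 fold change), and Wwp1, a ubiquitin ligase that acts on LATS1, 0.56. In the list of 21 symbols Vprbp and Dcaf1 name the same gene, which had a row as Vprbp (log2 fold change 0.25).

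Below LATS, 0 of 7 effector genes passed, with a median log2 fold change of -0.18. Tead1, a DNA-binding partner of YAP, had 926, 1100 and 1575 scaled counts in shSC, library 20 and library 21 (log2 fold change 0.51, limma adjusted p = 0.586). Tead4, Wwtr1 (TAZ) and Tead2 had log2 fold changes of -0.27, -0.18 and -0.19. Yap1 had 2967, 3697 and 2961 scaled counts (log2 fold change 0.16, limma adjusted p = 0.868). Of 7 target genes of YAP and TAZ, 5 rose, against 0.414% of all genes (Cyr61, Ctgf, Crim1, Amotl2 and Ankrd1), with log2 fold changes of 0.99 to 1.91. These targets were listed with their rise in these libraries already known, so the count is not independent evidence of its direction. No call among them held under quantile normalization or without a variance trend, and edgeR did not call Ctgf (adjusted p = 0.0516) or Ankrd1 (0.0952), while Ankrd1 was also lost with TMM factors and robust moderation (limma adjusted p = 0.0669 and 0.0538). Ajuba and Axl, in the same list, had 0.74 and 0.48 and did not pass. Lats2, at 0.54 (limma adjusted p = 0.545), lay between Axl and Ajuba and below the 5 targets that passed. Whether its value is tied to YAP was not tested.

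**Figure D5:**
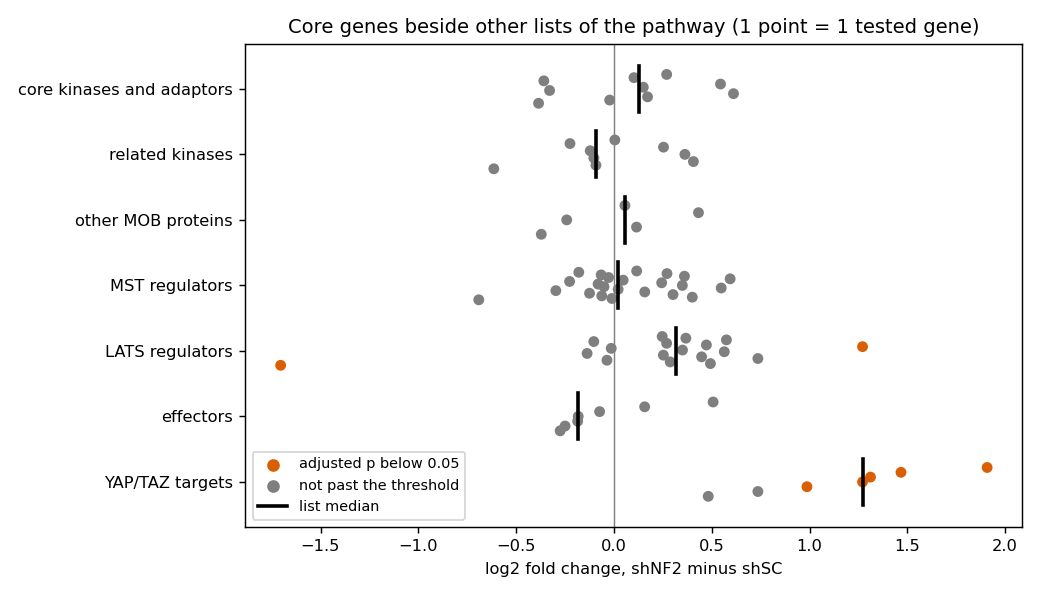
Log2 fold changes, shNF2 minus shSC (horizontal axis), of the tested genes in the core list and 6 other lists of the pathway; each point is 1 gene, orange where the limma adjusted p is below 0.05, and black bars are list medians. The core genes run from -0.39 (Taok2) to 0.61 (Stk4) with none past the threshold, while 5 of the 7 targets of YAP and TAZ are past it; Amotl2 and Ajuba appear in 2 lists.

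Likeness of pattern was measured as the distance between genes in the plane of both log2 fold changes, among 76 other tested genes of these lists. The 2 values of a gene share the shSC library, so likeness is a description with little information. Counts of genes as near include the named neighbour and also depend on how densely genes lie around that point. Nearest to Stk4 was Strn (distance 0.025), with 3 genes of the whole table as near. Nearest to Lats2 was Rassf3 (0.087), with 60 genes of the table as near. Slmap, a STRIPAK subunit that binds MST, was the nearest to both Lats1 (0.026) and Taok1 (0.024), with 31 and 21 genes as near. Mob1b had no close neighbour among these genes: Mob4 was the nearest, at 0.203, and 520 genes of the table were as near.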

How the data were processed

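The authors deposited 1 table of gene signal (scaled counts) for 3 libraries. Build mm10 and the tools DESeq 1.22.1, HTSeq 0.5.3, STAR 2.5.0a and cutadapt 1.6 stand in the submitters' processing notes without a role or order. Whether strand was used in counting is not given in the sources. In the deposited table each library is whole reads divided by 1 factor (1.03, 0.956 and 1.03 for shSC, library 20 and library 21): 100% of values came out whole within 0.001 reads. No gene had fewer than 15 reads in total, so low genes are absent from the table. A further 4 rows that name no gene held 47.7% to 48.7% of reads and were left out.

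Groups came from the labels. limma 3.58.1 (R 4.3.3, variance trend) was run on log2(scaled count + 1) for genes with a mean of at least 10; fold changes on this scale understate those of low genes. The spread has 1 residual degree of freedom, from libraries 20 and 21, and is moderated with 11.9 prior degrees from all genes, and shSC is assumed to vary alike; an exact permutation test of these libraries could not pass the threshold. edgeR 4.0.16 (quasi-likelihood) and DESeq2 1.42.0 on the recovered reads, other pseudocounts, filters, scalings and moderation, each shNF2 library left out, and a correction with mgcv 1.9.3 for GC and length were alternatives. The correction used median values of human GENCODE protein-coding transcripts, found for 10356 tested genes (80.8%) and for all 10 core genes. Ratios of single libraries carry exact 95% counting intervals. The test was first run on simulated counts with known changes.

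The 10 genes, the lists and the tests were chosen with earlier results of these data known. Named were the 10 genes, Nf2, in each list the genes past the threshold and up to 4 with the smallest p, and nearest genes. Further list members (Slmap, Vprbp, Wwp1, Axl, Strn3, Strn4, Ppp2ca, Yap1) were named after their values were seen.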

Additional observations from a re-analysis of the deposited data

How the results depend on the processing

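None of the 10 core genes passed under any of 11 alternatives with a test, where their adjusted p was at least 0.255 (Stk4 with GC and length correction). Of 110 values of single genes under these alternatives 2 changed sign, both close to 0: Sav1 was 0.018 under quantile normalization and Mob1a -0.017 with GC and length correction. The cause was not tested. With one shNF2 library left out there is no residual spread and so no test. Sav1 then ran from -0.078 to 0.035 and Taok1 0.00 to 0.30 (-0.0015 with library 20 alone). Stk4 ran from 0.48 to 0.74, Lats2 from 0.49 to 0.60 and Mob1b from -0.52 to -0.20. Over the table, 108 genes passed (53 higher, 55 lower). Without the filter on low values 232 passed (110 higher, 122 lower), 0 under quantile normalization and 0 without a variance trend (900 and 1036 genes had an unadjusted p under 0.05), whereas edgeR called 81 and DESeq2 98. Paralog shares were equal from reads and from scaled counts, since the factor cancels. The smallest change that passed in the test as reported was 1.98-fold, which depends on the setting and is no fixed limit of detection: with GC and length correction Ankrd1 passed at a log2 fold change of 0.89 (limma adjusted p = 0.029). No paired analysis was possible because the labels give shSC and shNF2 no shared replicate numbers.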
